A study of Mus musculus with 6 samples.

Results

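The transcripts of 43 proteasome genes were compared between differentiated muscle cultures from knockouts of the RNA-binding protein Sfpq and control cultures. The members are all genes whose symbol starts with Psma, Psmb, Psmc, Psmd, Psme or Psmf followed by a number and that reached 1 TPM in at least 3 of the 6 libraries. TPM is a measure of transcript abundance scaled by transcript length and to the same total in each library. Of 47 such names in the deposited values 43 passed, out of 12461 genes that passed in the whole series, and Psma8, Psmb8, Psmb9 and Psmb11 did not. The lowest member by mean TPM was Psme2b, at 5.09 to 6.78 TPM over the 6 libraries, and the highest name left out was Psmb9, at 0.112 to 1.64 TPM.

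Primary myoblasts, the precursor cells of muscle fibres, had been isolated from the skeletal muscle of males aged 1 month, and were differentiated in medium with 2% horse serum, which prompts them to fuse, until day 4. The SFPQ_KO group (n = 3) came from SfpqSM-KO mice and the Cont group (n = 3) from mice labelled only as control. The sources used here do not give the promoter that drives the deletion, the exons removed, the strain or which mouse each library came from. Sfpq stood at 18.3, 19.3 and 14.1 TPM in SFPQ_KO, against 48.6, 60.5 and 49.9 TPM in Cont, so every library went with its label (log2 difference −1.57, limma adjusted p = 0.0531, which did not pass 0.05).

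The proteasome degrades proteins that carry ubiquitin chains. Its barrel-shaped core is built from rings of alpha subunits, which gate the entry, around rings of beta subunits, of which Psmb5, Psmb6 and Psmb7 hold the proteolytic sites. A regulatory cap docks on either end: its base holds a ring of ATPases that unfold the substrate, and its lid removes the ubiquitin. In cells exposed to interferon, and in many immune cells, the inducible subunits Psmb8, Psmb9 and Psmb10 replace Psmb5, Psmb6 and Psmb7 in newly made cores, which are then called immunoproteasomes. Muscle relies on the proteasome to remove contractile proteins during wasting, and proteasome genes are known to be induced together when its activity is blocked.

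Proteasome transcripts were at near-equal levels in both genotypes. The 43 members together made up 0.903%, 0.985% and 0.891% of all TPM in SFPQ_KO, against 0.883%, 0.974% and 0.942% in Cont. Of the 43, 14 had a higher and 29 a lower mean on log2(TPM + 1) in SFPQ_KO, 67.4% lower against 64.5% of all genes tested. That split depended on scaling, with 15 of 43 lower after median-of-ratios scaling and 22 of 43 after quantile normalization. It also depended on single libraries, with 34 of 43 lower without SFPQ_KO replicate 2, 35 without Cont replicate 1 and 19 without Cont replicate 2. The members' median log2 difference was then −0.067, −0.065 and 0.0070, against −0.068, −0.10 and −0.040 for all genes tested. With limma's moderated test and Benjamini-Hochberg adjustment over all 12461 genes, 0 members rose and 0 fell at an adjusted p under 0.05, where 0% of all genes passed in either direction. The smallest adjusted p of a member was 0.336, for Psmd11. At an unadjusted p under 0.05, 1 member was higher and 2 were lower, against 2.68% and 9.62% of all genes. The median log2 difference of the members was −0.04, and that of all genes tested was −0.07.

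The intervals describe how precisely each difference was estimated between these libraries. They are not adjusted for the number of genes, and with no mouse named for a library they reflect only how these samples vary. They also move with scaling, as the median log2 difference of the members was −0.035 here and 0.038 after median-of-ratios scaling. The 95% confidence interval of the log2 difference lay within a 1.5-fold change in either direction for 40 of 43 members, or 93.0%, against 64.1% of all genes tested and 79.5% of 1560 other genes with a mean TPM between 77.25 and 351.5, the quartiles of the members. The 3 whose interval reached further were Psmb10, Psmd10 and Psme1. An absolute log2 difference under 0.2 was found for 37 members (86.05%), against 64.4% of all genes tested and 73.9% of the genes of like level. The 1.5-fold and 0.2 bounds were chosen after the values were seen and are descriptions.

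**Figure D1:**
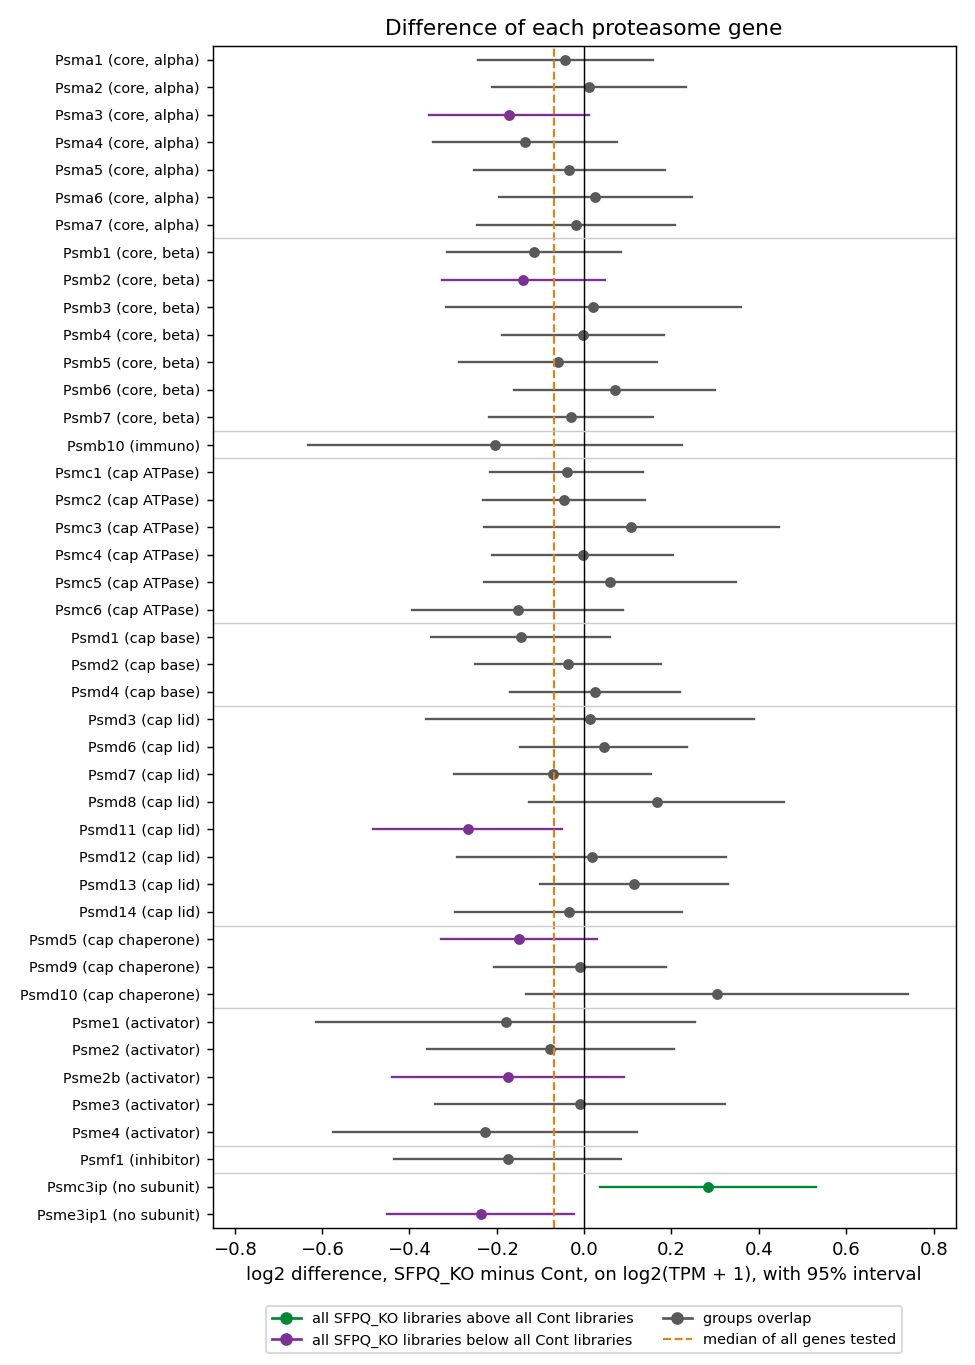
Log2 difference of each of the 43 members (SFPQ_KO minus Cont on log2(TPM + 1), n = 3 each) with its 95% interval from limma, grouped by role from the core at the top to name-only matches at the bottom. Green marks the member whose SFPQ_KO libraries all lie above Cont, purple the 6 whose SFPQ_KO libraries all lie below, and the dashed line is the median of all genes tested, −0.07.

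In a single library, members stood apart by their place on a chromosome. In SFPQ_KO replicate 2, genes on chromosome 11 from 90 Mb on (GRCm38) had a median log2(TPM + 1) 0.30 above the mean of the other 2 SFPQ_KO libraries, over 317 genes with a mean TPM of at least 5, and 87.7% of them were above it. The median was −0.0050 for the 504 genes before 90 Mb on that chromosome and −0.0080 for all 9000 genes outside the stretch, and in the Cont libraries the distal genes stood at −0.059, 0.023 and 0.038. The boundary was set after these values were seen. Of the 43 members 6 lie in this stretch: the beta subunit Psmb3, the lid subunits Psmd3 and Psmd12, the ATPase Psmc5, the activator Psme3, and Psmc3ip. The other 37 members had a median of 0.068 in that library and reached 0.47, for Psme1. Besides chromosome 11, only chromosomes 6, 10, 13, 15 and 18 were looked at singly, and together they hold 1 member. The remaining chromosomes, with 32 members, were taken only as a pool, so shifts of single chromosomes among them were not examined. Cont replicate 2 stood 0.33 above its group on chromosome 6, where 0 members lie, and SFPQ_KO replicate 3 stood 0.12 above on chromosome 13, where Psma2 lies. It also stood 0.14 above on chromosome 18, where the assembly chaperone Psmg2 lies. What moves these genes was not tested.

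**Figure D2:**
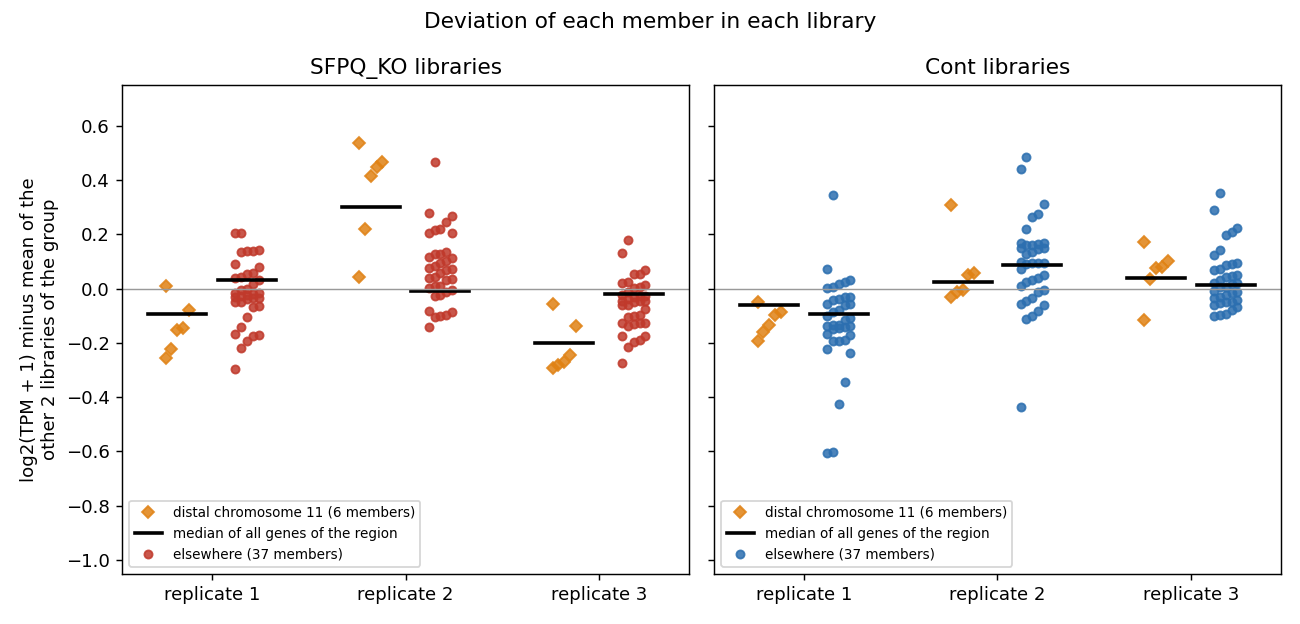
Deviation of each member in each library, as log2(TPM + 1) minus the mean of the other 2 libraries of its group, for the SFPQ_KO libraries (left) and the Cont libraries (right). Diamonds are the 6 members on distal chromosome 11, circles the other 37, and black lines the median of all genes of each region; in SFPQ_KO replicate 2 the diamonds lie between 0.044 and 0.54, with 5 of 6 above 0.15, and 8 of the 37 circles lie above 0.15, up to 0.47.

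Within the stretch, Psmd3 had 309, 446 and 305 TPM in the 3 SFPQ_KO libraries, against 329, 344 and 361 TPM in Cont. Psmb3 had 449, 592 and 420.5 TPM in SFPQ_KO, against 446, 487 and 492 TPM in Cont. Psmd12 had 170.4, 221 and 161 TPM in SFPQ_KO, against 176, 178 and 187 TPM in Cont. For each of them SFPQ_KO replicate 2 was the highest of the 6 libraries and the other 2 SFPQ_KO libraries lay near or below the lowest Cont library. Psme3 showed the same arrangement, with 65.9, 91.0 and 65.3 TPM in SFPQ_KO and 70.6, 75.4 and 74.9 TPM in Cont. Psmc5 was less shifted, with 355.5, 408 and 346 TPM in SFPQ_KO and 324, 408 and 335 TPM in Cont, and Psmc3ip in SFPQ_KO replicate 2 was 1.03 times its level in the other 2. Without SFPQ_KO replicate 2 the log2 difference was −0.17 for Psmd3, −0.13 for Psmb3, −0.12 for Psmd12, −0.16 for Psme3 and −0.013 for Psmc5. Psmc3ip was at 0.27 without that library and 0.28 with it. With all 6 libraries the difference was 0.013 for Psmd3, 0.021 for Psmb3, 0.017 for Psmd12, −0.0087 for Psme3 and 0.059 for Psmc5. The limma adjusted p of these 5 without that library ran from 0.470 to 0.973.

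Few members had groups that did not overlap. Every SFPQ_KO library was below every Cont library for 6 of 43 members, or 14.0%, against 15.3% of all genes tested, and above for 1, or 2.33%, against 4.27%. The 6 lower were Psma3, Psmb2, Psmd11, Psmd5, Psme2b and Psme3ip1, and the higher was Psmc3ip. Leaving out SFPQ_KO replicate 2 brought the lower count to 19 (all genes 24.3%), and leaving out Cont replicate 1 brought it to 13 (all genes 25.1%). After median-of-ratios scaling, which moved the median of all genes to −0.0011, the counts were 1 lower and 4 higher, where 9.11% of all genes were lower and 9.33% higher without overlap. Leaving out Cont replicate 2 gave 6 higher, with 12.35% of all genes.

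In the core, all 14 constitutive subunits were members. The alpha and beta transcripts summed to 3884, 4188 and 3751 TPM in SFPQ_KO, against 3882, 4074 and 4088 TPM in Cont, so the groups overlapped and the ratio of the means was 0.982. Of the 7 alpha subunits 2 were higher and 5 lower, with a median log2 difference of −0.03, and of the 7 beta subunits 2 were higher and 5 lower, also with a median of −0.03. After median-of-ratios scaling 5 of 7 in each ring were higher, and without SFPQ_KO replicate 2 all 7 beta subunits were lower. With single libraries left out, 1 to 4 alpha and 0 to 3 beta subunits were higher. None passed, and the smallest limma adjusted p was 0.426 among alpha and 0.506 among beta subunits. The interval of each of the 14 lay within a 1.5-fold change.

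Psma3, an alpha subunit, was the core gene with the smallest p. It had 87.9, 79.1 and 80.5 TPM in SFPQ_KO, against 94.4, 91.0 and 93.7 TPM in Cont, and the groups did not overlap. Its log2 difference was −0.17 (SE 0.077, 95% interval −0.36 to 0.012, limma adjusted p = 0.426). Psmb2, a beta subunit without a proteolytic site, had 200.2, 213 and 189 TPM in SFPQ_KO, against 223, 222 and 217 TPM in Cont, likewise with no overlap, and a log2 difference of −0.14 (SE 0.078, limma adjusted p = 0.506). Psma2, the most abundant alpha transcript, had 237, 255 and 279 TPM in SFPQ_KO, against 238, 265 and 259.8 TPM in Cont. The proteolytic subunits also overlapped between the groups. Psmb6, which cuts after acidic residues, averaged 452.5 ± 43.6 TPM in SFPQ_KO and 429.7 ± 13.5 TPM in Cont (SD, n = 3 each). Psmb7, which cuts after basic residues, averaged 453 ± 21.1 TPM in SFPQ_KO and 462.5 ± 8.81 TPM in Cont. Psmb5, which cuts after hydrophobic residues, averaged 303 ± 17.2 TPM in SFPQ_KO and 316 ± 27.2 TPM in Cont.

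The regulatory cap overlapped between the groups as well. The name rule takes 17 of its subunits, 6 ATPases, 3 other base subunits and 8 lid subunits. They summed to 4662, 5117 and 4683 TPM in SFPQ_KO, against 4446, 5113 and 4765 TPM in Cont. The cap subunits Adrm1 and Sem1 fall outside the rule and are in neither this sum nor the ratio to the core. Adrm1 averaged 189 TPM in SFPQ_KO and 176.3 TPM in Cont, and Sem1 averaged 211 and 222.4 TPM, both with overlap. The ratio of cap to core was 1.2, 1.222 and 1.249 in SFPQ_KO and 1.145, 1.255 and 1.165 in Cont, with overlap. Among the ATPases 2 were higher and 4 lower with a median log2 difference of −0.02, and 5 of 6 were higher after median-of-ratios scaling and 0 without Cont replicate 1. Psmc3 was the most abundant member in every library, at 615, 651 and 620.1 TPM in SFPQ_KO and 497, 715 and 557.5 TPM in Cont, and its Cont libraries spanned those of SFPQ_KO. Psmc6, the ATPase with the smallest p, averaged 155 ± 14.5 TPM in SFPQ_KO and 173 ± 12.8 TPM in Cont (limma adjusted p = 0.575).

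Psmd11, a lid subunit that stabilises the joint of cap and core and is known to raise proteasome assembly in human embryonic stem cells, came nearest to the threshold of all members. It had 98.7, 118 and 106 TPM in SFPQ_KO, against 126, 127 and 134.5 TPM in Cont. Each SFPQ_KO library lay below each Cont library. The log2 difference was −0.27 (SE 0.091, 95% interval −0.48 to −0.050), a mean ratio of 0.832, with a limma adjusted p of 0.336 that did not pass. Without SFPQ_KO replicate 2 it was −0.34 (limma adjusted p = 0.245). The other 7 lid genes were 5 higher and 2 lower, and of the higher Psmd3 and Psmd12 were below 0 without SFPQ_KO replicate 2. Psmd8, the most abundant of them, had 379, 488 and 447 TPM in SFPQ_KO, against 364, 373 and 430.1 TPM in Cont, with overlap and a limma adjusted p of 0.608. Psmd14, the deubiquitinase of the lid, was the least abundant cap subunit, at 79.55 ± 5.82 TPM in SFPQ_KO and 81.7 ± 9.51 TPM in Cont (SD, n = 3 each).

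In the base, Psmd4, a ubiquitin receptor, had 413, 418 and 417 TPM in SFPQ_KO, against 388, 437 and 403 TPM in Cont. Psmd1, a scaffold subunit whose span overlaps Gm21972 on its own strand and Htr2b on the other, had 147, 149.8 and 146 TPM in SFPQ_KO, against 149, 176 and 166 TPM in Cont, and its limma adjusted p was 0.532. Of the 3 members that are chaperones of base assembly and leave the finished proteasome, Psmd5 had 47.2, 44.4 and 48.0 TPM in SFPQ_KO, against 50.7, 52.3 and 52.2 TPM in Cont, without overlap (log2 difference −0.15, limma adjusted p = 0.468). Psmd10, also known as the oncoprotein gankyrin, had the highest log2 difference of all members with the 6 libraries, 0.30. It had 40.8, 36.55 and 40.1 TPM in SFPQ_KO, against 23.5, 39.7 and 33.4 TPM in Cont. The Cont libraries were widely spread and overlapped SFPQ_KO (SE 0.18, limma adjusted p = 0.540). Without Cont replicate 1 the log2 difference was 0.10, and without Cont replicate 2 it was 0.47. Psmd9 stood at 29.6 ± 1.73 TPM in SFPQ_KO and 29.8 ± 0.63 TPM in Cont (SD, n = 3 each).

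The order of subunit levels was nearly fixed. Over the 31 core and cap subunits among the members, Spearman's rho of TPM between libraries ran from 0.966 to 0.986 for the 15 pairs of libraries. That is a description across genes, which are not replicates and share their lengths and base composition between libraries. Psmc3 ranked first in 6 of 6 libraries, and Psmd14 and Psma3 held the last 2 ranks in each. Although the core holds its subunits in equal number, their mean TPM over all libraries spanned 5.48-fold, from Psma3 at 87.8 TPM to Psmb3 at 481 TPM, and that of the cap 7.55-fold. Beta subunits, with a median of 364 TPM, stood above alpha subunits, with a median of 215 TPM, and ATPases, with 358.5 TPM, above the lid, with 217 TPM.

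**Figure D3:**
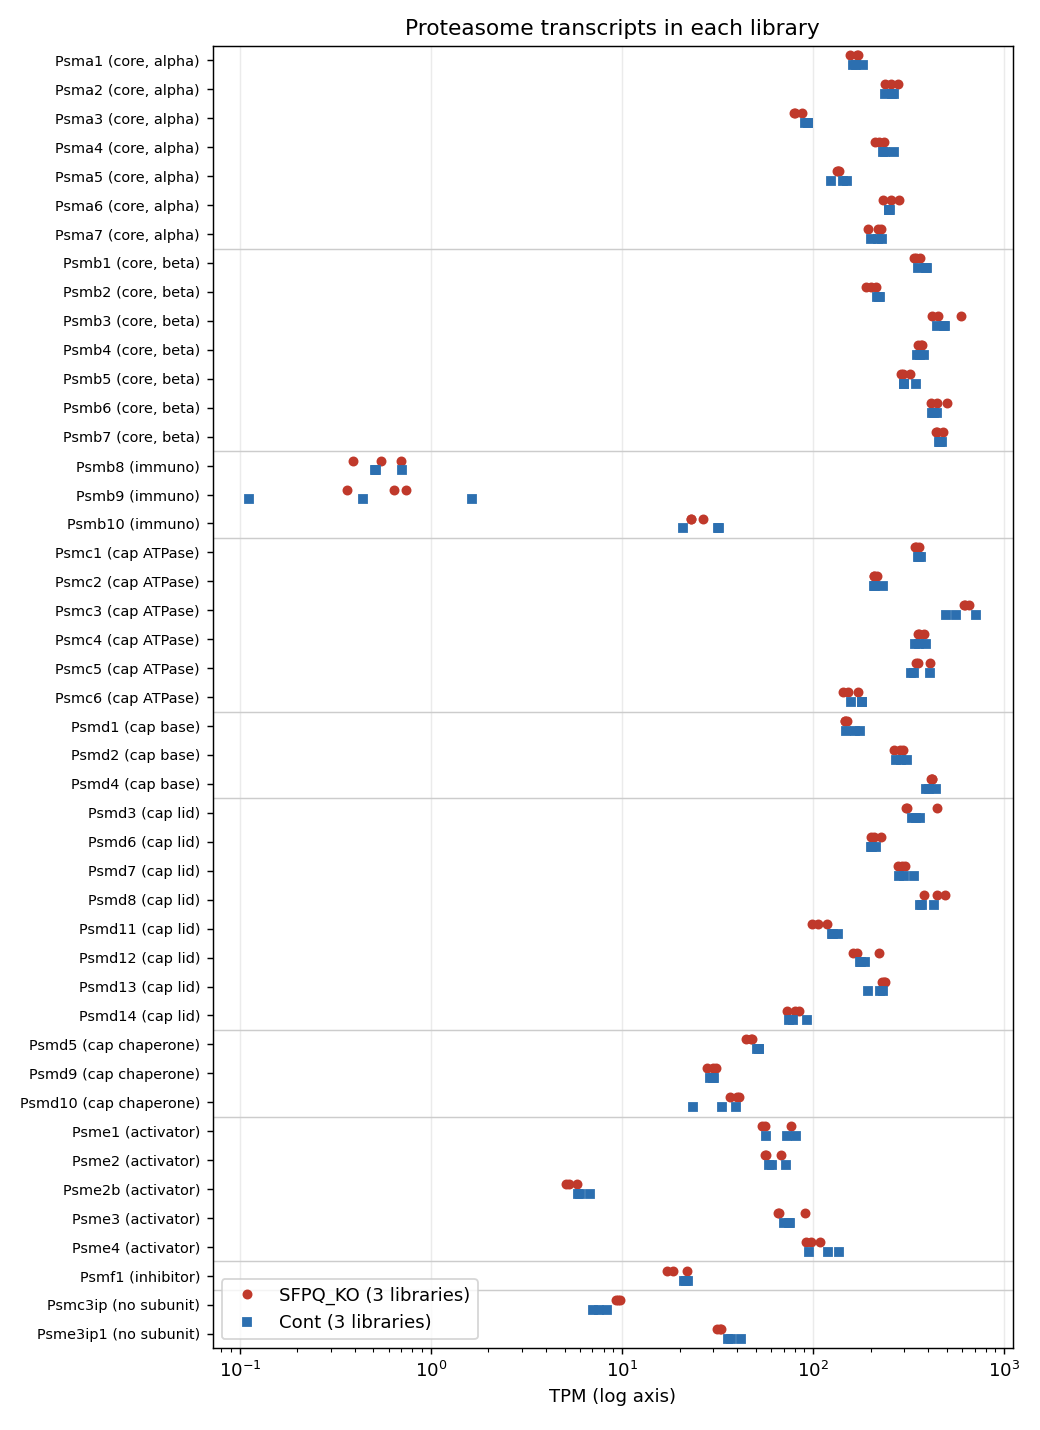
TPM of the 43 members and of Psmb8 and Psmb9, which stayed below the TPM filter, on a log axis, with red circles for the 3 SFPQ_KO libraries and blue squares for the 3 Cont libraries of each gene. Constitutive core and cap subunits lie between 73.2 and 715 TPM in both groups, Psmb10 between 20.8 and 32.3 TPM, and Psmb8 and Psmb9 at 1.64 TPM or less.

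Transcripts of Psmb8, Psmb9 and Psmb11 were close to 0 in both groups. Psmb8 had 0.389, 0.545 and 0.694 TPM in SFPQ_KO, against 0.708, 0.515 and 0.507 TPM in Cont. Psmb9 had 0.644, 0.362 and 0.737 TPM in SFPQ_KO, against 1.64, 0.112 and 0.440 TPM in Cont, and its span overlaps Tap1 on the opposite strand. Psmb8 made up 0.131% to 0.239% of the sum of Psmb8 and its constitutive counterpart Psmb5 in SFPQ_KO and 0.146% to 0.236% in Cont. Psmb9 made up 0.0724% to 0.178% of its sum with Psmb6 in SFPQ_KO and 0.0268% to 0.368% in Cont. Psmb11, the form made in the thymus, was at 0.020 TPM or less in SFPQ_KO and at 0.043 TPM or less in Cont.

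Psmb10 was the inducible subunit that passed the filter. It had 26.5, 22.8 and 22.9 TPM in SFPQ_KO, against 20.8, 32.3 and 31.9 TPM in Cont, or 4.57% to 5.61% of its sum with Psmb7 in SFPQ_KO and 4.37% to 6.54% in Cont. Cont replicate 1 was the lowest of the 6 libraries and the other 2 Cont libraries the highest, so the groups overlapped. The log2 difference was −0.20 (SE 0.18, 95% interval −0.63 to 0.22, limma adjusted p = 0.672), and −0.40 without Cont replicate 1.

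**Figure D4:**
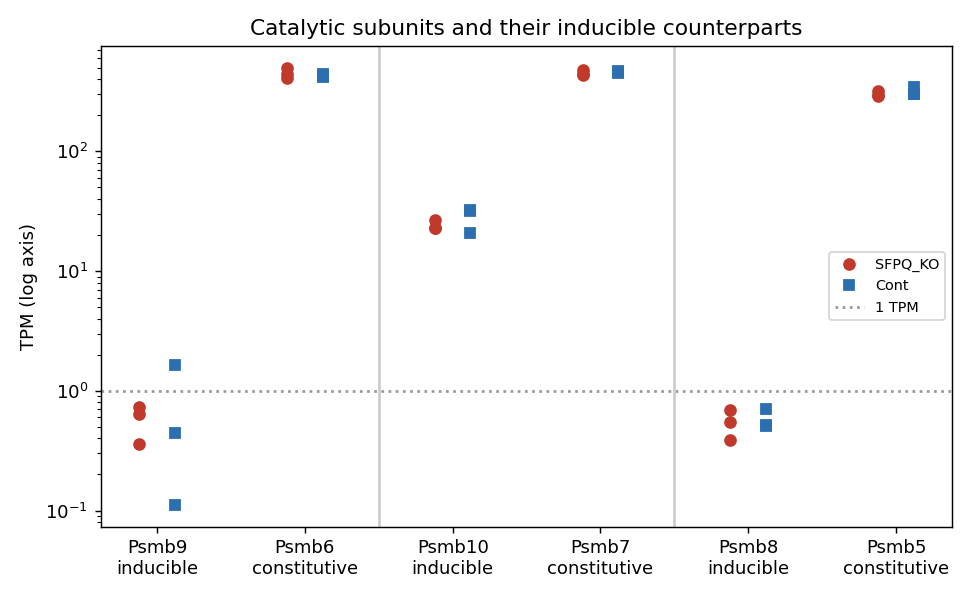
TPM on a log axis of the 3 inducible beta subunits, each left of the constitutive subunit it replaces, in the SFPQ_KO (circles) and Cont (squares) libraries, with a dotted line at 1 TPM. Psmb5, Psmb6 and Psmb7 stand between 289 and 499 TPM, Psmb10 near 5% of Psmb7 plus Psmb10, and 1 of 12 values of Psmb8 and Psmb9 exceeds 1 TPM.

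The start regions of the pairs Psmb8 with Psmb5 and Psmb9 with Psmb6 are printed to set the transcribed subunits beside those near 0. They run from 250 bases before to 50 after a listed start, on the gene's strand, 5′ to 3′, in GRCm38.p6. For Psmb8, Psmb5 and Psmb9 that is the start of the RefSeq gene. The Psmb6 window is set on a start other than that of its RefSeq gene, 70525324. The window of Psmb8 is chr17:34197945-34198244 on the plus strand and that of Psmb5 is chr14:54617946-54618245 on the minus strand. The window of Psmb9 is chr17:34187281-34187580 on the minus strand and that of Psmb6 is chr11:70525107-70525406 on the plus strand. Capitals mark matches to motifs searched on both strands.
Psmb8: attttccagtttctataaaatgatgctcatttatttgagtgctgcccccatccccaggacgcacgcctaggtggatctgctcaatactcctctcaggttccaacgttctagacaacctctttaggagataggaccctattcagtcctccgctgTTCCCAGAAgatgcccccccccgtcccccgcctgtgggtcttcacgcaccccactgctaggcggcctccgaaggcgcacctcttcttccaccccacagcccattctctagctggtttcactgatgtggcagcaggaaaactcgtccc
Psmb5: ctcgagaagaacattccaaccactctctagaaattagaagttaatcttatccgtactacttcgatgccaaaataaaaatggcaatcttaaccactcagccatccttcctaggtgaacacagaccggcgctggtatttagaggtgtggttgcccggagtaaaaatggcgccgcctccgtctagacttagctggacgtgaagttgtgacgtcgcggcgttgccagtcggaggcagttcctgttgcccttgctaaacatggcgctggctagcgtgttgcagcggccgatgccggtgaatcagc
Psmb9: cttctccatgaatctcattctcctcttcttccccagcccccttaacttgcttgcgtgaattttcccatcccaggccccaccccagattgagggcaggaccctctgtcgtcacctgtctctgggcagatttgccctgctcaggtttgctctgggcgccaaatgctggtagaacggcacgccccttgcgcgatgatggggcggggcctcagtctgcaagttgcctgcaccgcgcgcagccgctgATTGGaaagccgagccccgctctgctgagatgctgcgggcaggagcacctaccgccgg
Psmb6: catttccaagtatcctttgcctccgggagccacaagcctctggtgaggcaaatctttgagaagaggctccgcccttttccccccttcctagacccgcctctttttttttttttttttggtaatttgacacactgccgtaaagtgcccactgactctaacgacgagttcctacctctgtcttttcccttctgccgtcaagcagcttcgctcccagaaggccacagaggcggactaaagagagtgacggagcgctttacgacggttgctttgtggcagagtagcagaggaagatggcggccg
The motifs were the antioxidant response element (TGAC, any 3 bases, GCA), which is the site of the factors Nfe2l1 and Nfe2l2, the CCAAT box, the interferon-stimulated response element (GAAA, any 2 bases, GAAA) and the gamma-activated site (TTC, any 3 bases, GAA). No letters are shared between matches of different motifs in the windows shown. Psmb8 held 1 match to the gamma-activated site and Psmb9 held 1 CCAAT on the reverse strand, while Psmb5 and Psmb6 held 0 of the 4 motifs. The start region of Psmb10, not printed, also held 0, and none was listed for Psmb7. Start regions were listed for 37 of the 43 members, 41 in all. The antioxidant response element was in 2 of them (4.9%, against 3.04% of all 32851 listed), in Psmd12 and Psme4. The CCAAT box was in 14 (34.1%, against 37.4%). The interferon-stimulated response element was in 4 (9.8%, against 3.44%), in Psmb3, Psmd4, Psmd9 and Psme1, and the gamma-activated site was in 1 (2.4%, against 8.30%), in Psmd2. A match is a string of letters and no evidence of binding, and its absence from this window says nothing of the factor.

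Genes of the interferon response and of antigen presentation are known to be induced together with the immunoproteasome. Of 13 interferon response genes 9 were tested and 0 passed. Of the 9, 3 were higher and 6 lower (66.7%, against 64.5% of all genes tested), with a median log2 difference of −0.12. Either other scaling gave 4 higher and 5 lower. The median was −0.19 without SFPQ_KO replicate 3 and −0.21 without Cont replicate 2. Irf9, a transcription factor of the interferon response, averaged 4.74 ± 0.63 TPM in SFPQ_KO and 5.40 ± 0.27 TPM in Cont, and Irf7 averaged 1.81 ± 0.47 TPM in SFPQ_KO and 2.60 ± 1.07 TPM in Cont (SD, n = 3 each). Of 8 genes of class I antigen presentation 7 were tested and 0 passed, 3 being higher and 4 lower, while median-of-ratios scaling gave 4 higher and 3 lower, and without SFPQ_KO replicate 2 it was 1 higher and 6 lower. Tap2, a subunit of the peptide transporter, came nearest with 27.1 ± 5.88 TPM in SFPQ_KO and 37.8 ± 5.07 TPM in Cont (limma adjusted p = 0.360), and Erap1, a peptide-trimming protease, averaged 4.18 ± 1.05 TPM in SFPQ_KO and 4.79 ± 0.023 TPM in Cont. Tapbp, which loads peptides, averaged 29.7 ± 4.37 TPM in SFPQ_KO and 27.1 ± 4.61 TPM in Cont.

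Markers of other cells give the setting of these values. The 10 macrophage and leukocyte markers summed to 1.84 to 2.83 TPM in SFPQ_KO and 2.02 to 2.71 TPM in Cont, with Ptprc, Adgre1 and Tyrobp listed at 0 in every library. The 6 endothelial markers summed to 0.411 to 1.02 TPM in SFPQ_KO and 0.610 to 1.08 TPM in Cont, with Emcn listed at 0. The 7 fibroblast markers summed to 12.7 to 29.3 TPM in SFPQ_KO and 36.5 to 85.5 TPM in Cont, most of it Col1a1, with Tcf21 listed at 0 throughout and Lum listed at 0 in SFPQ_KO. The 8 myogenic markers summed to 53300 to 54790 TPM in SFPQ_KO and 46630 to 48020 TPM in Cont. Acta1, at 30840 TPM in SFPQ_KO and 24430 TPM in Cont on average, made up most of that sum, and of the 8 markers 5 were higher and 3 lower by log2 difference, the lower being Tnnt3 (−0.25), Ckm (−0.22) and Ttn (−0.016). The fibroblast and myogenic sums did not overlap between the groups, and their part in the proteasome values was not tested. Of the 2 fibroblast markers that passed the filter, Col1a1 was lower without overlap and Col1a2 overlapped. Col1a1 lies in the distal stretch of chromosome 11. In bulk cultures fewer cells of a type and less RNA per cell cannot be told apart.

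All 5 activators of the core, which open its gate without the cap, had log2 differences below 0, as did 64.5% of all genes tested. Psme3 lay above 0 under both other scalings, and none of the 5 passed. Without Cont replicate 2, 3 of 5 were below 0. Psme4, which acts in nuclei and is the only member with a span of 100 kb or more (109 kb), had 97.7, 109 and 91.5 TPM in SFPQ_KO, against 95.3, 120.2 and 137 TPM in Cont. Its groups overlapped through Cont replicate 1, and the log2 difference was −0.23 (SE 0.15, limma adjusted p = 0.564), or −0.37 without that library. Psme1 and Psme2 form the interferon-inducible ring, and Psme1 had 56.0, 76.2 and 53.9 TPM in SFPQ_KO, against 81.7, 56.6 and 72.6 TPM in Cont. Psme2 had 56.1, 68.0 and 56.6 TPM in SFPQ_KO, against 58.6, 71.7 and 60.6 TPM in Cont. Both overlapped between the groups, and so did the nuclear activator Psme3.

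Psme2b, which RefSeq also lists as Psme2-like, had 5.83, 5.09 and 5.29 TPM in SFPQ_KO, against 6.02, 6.78 and 5.88 TPM in Cont. The groups did not overlap, with a log2 difference of −0.17 (limma adjusted p = 0.562). Its reads may be shared with Psme2, and it lies within the span of 9930111J21Rik1 on the same strand, so its value is uncertain. Psmf1, which binds the core and inhibits it in vitro, had 17.1, 21.8 and 18.5 TPM in SFPQ_KO, against 21.0, 22.2 and 21.7 TPM in Cont. Only SFPQ_KO replicate 2 reached the Cont values, and the limma adjusted p was 0.554, or 0.349 without that library (log2 differences −0.17 and −0.27).

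The name rule also takes 2 genes that are no proteasome subunits. Psmc3ip, a factor of meiotic recombination named for binding the ATPase Psmc3, had 9.57, 9.73 and 9.25 TPM in SFPQ_KO, against 7.03, 7.59 and 8.35 TPM in Cont. It was the single member with all SFPQ_KO libraries above Cont, at a log2 difference of 0.28 (SE 0.10, limma adjusted p = 0.360), and its span overlaps Mlx on the opposite strand. Psme3ip1, a nuclear binding partner of Psme3, had 31.5, 32.8 and 32.4 TPM in SFPQ_KO, against 35.7, 37.2 and 41.9 TPM in Cont, without overlap (log2 difference −0.24, SE 0.090, limma adjusted p = 0.375). The span of Psme3ip1 overlaps Rspry1 on the other strand. After Psmd11 these 2 had the smallest p of the members.

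Genes that build, serve or regulate the proteasome were examined in 5 lists, and 0 of 40 tested passed. At an unadjusted p under 0.05, 0 were higher and 4 of 40 lower, against 2.68% and 9.62% of all genes. All 5 chaperones of core assembly had log2 differences above 0, against 35.5% of all genes tested. They stayed above 0 under both other scalings. The median was 0.12, though Psmg1 was at 0.00017. With single libraries left out 4 or 5 of 5 were higher, and the median was 0.052 without SFPQ_KO replicate 3, 0.063 without SFPQ_KO replicate 2 and 0.020 without Cont replicate 3. Psmg4 averaged 37.8 ± 7.01 TPM in SFPQ_KO and 31.1 ± 0.88 TPM in Cont without overlap (limma adjusted p = 0.476). It was the only 1 of the 5 without overlap (20%, against 4.27% of all genes tested that were higher without overlap). Psmg2 averaged 55.5 ± 9.66 TPM in SFPQ_KO and 49.2 ± 3.67 TPM in Cont, and Psmg3 averaged 50.5 ± 3.77 TPM in SFPQ_KO and 46.7 ± 6.12 TPM in Cont, both with overlap. Psmg4 lies on chromosome 13 and Psmg2 on chromosome 18, which both stood higher in SFPQ_KO replicate 3, and without that library their log2 differences were 0.12 and 0.048, against 0.26 and 0.16 with it. Of 10 tested genes for other cap subunits and bound proteins, 3 were higher and 7 lower (70%, against 64.5% of all genes tested, median −0.10). Under either other scaling 4 were higher and 6 lower. Without Cont replicate 2 the split was 5 and 5 (median −0.040), and without SFPQ_KO replicate 1 the median was −0.063 with 7 lower. The lowest was Zfand5, an adaptor that stimulates the proteasome in atrophying muscle, with 39.8, 49.0 and 39.5 TPM in SFPQ_KO, against 51.5, 53.9 and 62.6 TPM in Cont (log2 difference −0.38, SE 0.12, limma adjusted p = 0.320). Ecpas, a scaffold that holds cap and core, averaged 39.9 ± 3.17 TPM in SFPQ_KO and 48.5 ± 2.59 TPM in Cont (limma adjusted p = 0.329). Ube3c, a ligase bound to the proteasome, averaged 46.2 ± 2.72 TPM in SFPQ_KO and 53.4 ± 3.47 TPM in Cont. Of the 10 only these 3 had no overlap between the groups (30% lower, against 15.3% of all genes tested).

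Among 8 regulators of proteasome genes 3 were higher and 5 lower (62.5%, against 64.5% of all genes tested). The counts were the other way round, 5 higher and 3 lower, under both other scalings. With single libraries left out 2 to 6 of 8 were higher. Nfe2l1, the transcription factor that restores proteasome genes when activity is low, lies in the distal part of chromosome 11. It had 328, 486 and 353 TPM in SFPQ_KO, against 364, 349.5 and 341.5 TPM in Cont, so SFPQ_KO replicate 2 alone stood apart, and the log2 difference was −0.047 without it and 0.12 with it. Keap1, which restrains Nfe2l2, averaged 45.95 ± 2.24 TPM in SFPQ_KO and 53.2 ± 3.02 TPM in Cont without overlap (limma adjusted p = 0.390). It was the only 1 of the 8 without overlap (12.5%, against 15.3% of all genes tested that were lower without overlap). Ngly1, which activates Nfe2l1 by removing its sugars, averaged 20.35 ± 1.67 TPM in SFPQ_KO and 22.5 ± 2.37 TPM in Cont. Mafk, a small Maf partner of Nfe2l1 and Nfe2l2, averaged 59.9 ± 18.4 TPM in SFPQ_KO and 47.0 ± 15.3 TPM in Cont, and both overlapped.

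Of 4 ubiquitin genes 3 were higher and 1 lower (25%, against 64.5% of all genes tested), and 0 passed. Their log2 differences ran from −0.34 to 0.10. The median was 0.073, or 0.013 after quantile normalization. Without overlap, 1 was lower (25%, against 15.3% of all genes tested) and 1 higher (25%, against 4.27%). The higher was Rps27a, a fusion of ubiquitin to a ribosomal protein. Rps27a averaged 768 ± 3.1 TPM in SFPQ_KO and 715 ± 31.4 TPM in Cont (limma adjusted p = 0.631). Of 13 tested genes for ubiquitin activation and delivery 2 were higher and 11 lower (84.6%, against 64.5% of all genes), with a median of −0.12, or 10 and 9 lower after median-of-ratios and quantile scaling. Without Cont replicate 2, 9 of 13 were lower (median −0.067). Uba1, the main ubiquitin-activating enzyme, averaged 289.6 ± 18.7 TPM in SFPQ_KO and 333 ± 23.0 TPM in Cont (limma adjusted p = 0.437). Faf1, a cofactor of the segregase Vcp, averaged 37.6 ± 2.397 TPM in SFPQ_KO and 43.1 ± 2.601 TPM in Cont. Ubqln1, a shuttle receptor, averaged 79.95 ± 4.32 TPM in SFPQ_KO and 86.75 ± 3.005 TPM in Cont. Of the 13 only these 3 had no overlap between the groups (23.1% lower, against 15.3% of all genes tested).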

How the data were processed

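Polyadenylated RNA of 6 cultures was sequenced by the authors on an Ion Proton. The deposited values are TPM, per the file headers and the column sums of 999999 to 1000001, for 34671 RefSeq accessions a library. STAR 2.4.1d and mm10 are named in the submitters' processing notes. The counter, the annotation release and whether strand was used were not given in the sources used here. Read depth is unknown. Libraries held 12216 to 12484 genes at 1 TPM or more.

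Accessions were named through a RefSeq table of GRCm38.p6 (30822) or GENCODE (103), and 3746 kept their accession (1.19% to 1.27% of TPM). TPM was summed to 34656 genes. The test was limma 3.58.1 in R 4.3.3 (intensity trend, 2-sided, Benjamini-Hochberg at 0.05) on log2(TPM + 1) of genes that reached 1 TPM in 3 or more libraries. Fold changes on this scale understate low genes. No label says which mouse a library came from, so p-values reflect only how these samples vary, possibly for technical reasons. Each of the 43 members rests on 1 accession. Coding overlap was looked up in GENCODE M21. The test was checked on simulated data with planted changes larger than the difference of any member. That check does not cover changes of the members' size. Python 3.11.15, pandas 2.3.3 and matplotlib 3.10.9 were used.

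The members and lists were chosen with earlier results of these data known. Named are members without overlap, the most abundant and smallest-p member of each role, all inducible subunits, activators and non-subunits, and up to 3 genes of each other list by smallest p. A few genes that this rule names are not reported here. Genes picked after their values were seen are Psmb5, Psmb6, Psmb7, Psmd9, Psmd10, Psmd14, Nfe2l1 and the members on distal chromosome 11. Alternatives covered pseudocount, filter, scaling, moderation, replicate block, threshold, membership and each library left out, and leaving out the distal chromosome 11 members was added after seeing the data.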

Additional observations from a re-analysis of the deposited data

How the results depend on the processing

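No member passed limma's adjusted threshold under any of 15 refits, a threshold of 0.1 or the narrower membership. Of all genes tested, the refits called up to 2 higher and 11 lower, and the threshold of 0.1 called 7 higher and 21 lower. With the replicate block 0 members were called as well (smallest limma adjusted p = 0.587, against 0.336 without it). In their deviations from the group means, same-numbered libraries showed no sign of pairing, with correlations of −0.26, −0.25 and 0.049 over 12461 genes. No library correlated best with its own number, and the highest correlation, 0.412, was between SFPQ_KO replicate 1 and Cont replicate 2. Deviations within a group sum to 0 and genes are not replicates, so these correlations cannot exclude paired handling. The count of members higher without overlap, 1, became 4 with median-of-ratios scaling (9.33% of all genes) and 4 with quantile normalization (8.71% of all genes), 0 for subunits, activators and inhibitor alone, 0 without the distal chromosome 11 members, and ran from 1 to 6 with single libraries left out. The count lower, 6, became 1 with median-of-ratios scaling (9.11% of all genes) and ran from 6 to 19 with single libraries left out. The members' median ran from −0.067 to 0.0070 with single libraries left out and was 0.038 after median-of-ratios scaling. The log2 ratio of the summed core moved from −0.027 to 0.048 after median-of-ratios scaling and ran from −0.073 to 0.0075 with single libraries left out. Of 20 members named by the stated rule 6 changed sign in some alternative and 0 passed in any. Their log2 differences with single libraries left out ran from −0.048 to 0.068 for Psma2, −0.13 to 0.12 for Psmb3, −0.0065 to 0.26 for Psmc3, −0.014 to 0.072 for Psmd4, −0.17 to 0.010 for Psme2 and −0.16 to 0.072 for Psme3. Psme3 was also 0.065 with median-of-ratios scaling and 0.025 with quantile normalization. Of the members picked after their values were seen and outside these 20, others changed sign with 1 library left out. These were Psmb5, Psmb6, Psmd9, Psmd14, Psmd3, Psmd12 and Psmc5, while Psmb7 and Psmd10 kept their sign in those refits. Signs also depended on scaling, as 2 of 7 beta subunits were higher in the main fit and 5 of 7 after median-of-ratios scaling. The cause was not tested. TPM keeps no depth, so the precision of low genes such as Psmb8 and Psmb9 is unknown.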
